A study of Capsella rubella with 6 samples.

Results

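In the hybrid endosperm of *Capsella rubella*, a selfing species of the Brassicaceae, 81 genes were read almost entirely or mainly from the allele of the accession Cr B, whichever parent had contributed it. They were chosen by their allele shares. In each of 4 RNA libraries the maternal reads of a gene were halved, since endosperm carries 2 maternal copies for 1 paternal copy, and the Cr A share was the Cr A part of the Cr A and Cr B reads per copy. A gene belonged to the group when it had at least 20 allelic reads and a Cr A share of at most 25% in every library. Of 12641 genes with a polymorphic site, 6990 had 20 reads in every library, and the 81 genes were 1.16% of these. The mirror rule, with the Cr B share bounded in place of the Cr A share, chose 66 Cr A-dominated genes (0.944%).

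The study asked which genes of the endosperm are expressed from the maternal or the paternal genome. It crossed Cr75.2, called Cr B, and Cr48.21, called Cr A, in both directions. Designated female flowers were emasculated and pollinated by hand 2 days later, seeds were taken 6 days after pollination, and the dissected endosperm of 300 to 500 seeds was pooled for each library. The groups used here were Cr B x Cr A, with Cr B read as the mother (2 libraries), and Cr A x Cr B, with Cr A read as the mother (2 libraries). Both accessions appear without any transgene or mutation in the labels. Names were read as female x male, which the labels do not state, and the opposite reading would exchange Cr A and Cr B in every result. The labels do not say whether replicates were grown and pollinated separately, so the p-values below cover no more than the spread among the 4 pools, which may be technical.

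Endosperm is the nourishing tissue of the seed and forms when a sperm cell fuses with the central cell, which brings more maternal than paternal genomes. In an imprinted gene the expressed allele follows the parent: the maternal copy is read in both directions of a reciprocal cross, or the paternal copy is. In a gene with an allele effect the expressed allele follows the accession, so the mother is the main source in 1 direction and the father in the other. Because both alleles of a hybrid lie in the same nuclei, a difference between them is usually assigned to sequence or chromatin carried by the allele itself, or to how well its reads are recognised. A gene dominated by Cr B in both directions has the second pattern by construction.

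Reads assigned to an allele within genes numbered 8828316 and 10864896 in Cr B x Cr A and 7549075 and 10913804 in Cr A x Cr B. They were counted at each polymorphic site that a read covered, so they are base observations and not molecules. Over the 6990 genes the median Cr A share was 46.7% and 43.5% in Cr B x Cr A and 53.0% and 51.3% in Cr A x Cr B, near equal reads per copy. The genes are listed by position without names, so endosperm, seed coat and embryo markers were not checked, and the genes below are given by scaffold, start, end and strand. In bulk tissue, fewer cells of a type and less RNA per cell cannot be told apart.

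The median of the mean Cr A share was 9.81% over the 81 genes, against 48.9% over the 6990 genes. The shares ran from complete absence of Cr A reads up to the bound: 9 genes had a mean share of at most 1%, 26 of at most 5%, 43 of at most 10%, and 17 of more than 15%. In 17 genes the share was at most 5% in every library. Cr A reads were present in all 4 libraries in 55 genes, at a low level. How many such reads errors in base or allele calls would give was not estimated. These values chose the genes and carry no test.

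The Cr A share was lower where Cr A was the paternal allele. Its median over the 81 genes was 5.76% and 5.89% in the libraries of Cr B x Cr A, and 13.6% and 8.38% in those of Cr A x Cr B. No Cr A read was found in 17 and 14 of the genes in Cr B x Cr A, and in 8 and 8 in Cr A x Cr B, where each gene has 2 Cr A copies to be counted. The same order of the crosses held for the median of the 6990 genes given above.

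**Figure D1:**
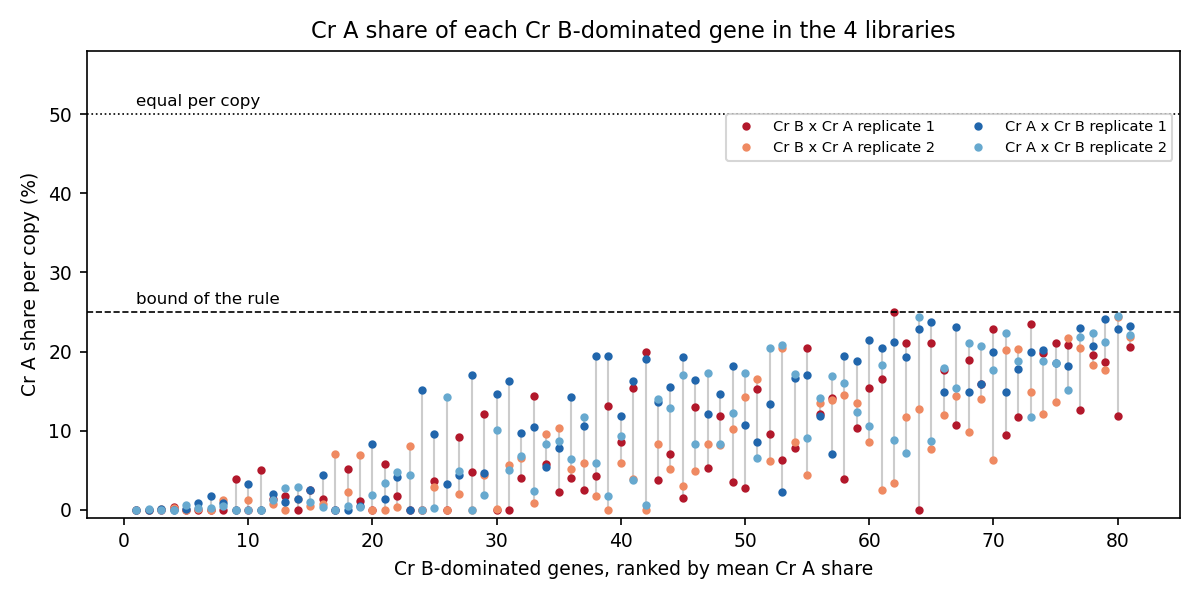
Cr A share per copy, in percent, of each of the 81 Cr B-dominated genes in the 4 libraries, with the genes ranked by their mean share; red points are Cr B x Cr A, blue points Cr A x Cr B, and a grey line joins the lowest and highest library of a gene. Every point lies at or under the 25% bound, as the rule requires, and the points of a gene lie wider apart among the genes with higher means than among the 9 with a mean of at most 1%.

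At the low end of the ranking, the Cr A allele was hardly read at all. The gene at scaffold 1, 10536735 to 10538351, minus strand, had 190 and 343 Cr B reads in Cr B x Cr A and 78 and 90 in Cr A x Cr B over 9 sites, and no Cr A read in any library. A count of 0 among its 701 reads allows a Cr A share of raw reads of up to 0.428%, as 3 reads of the total. That limit takes the 701 as independent. A read that covers several of the 9 sites is counted at each, so the true limit may be higher. It was the only gene of the group without a Cr A read.

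The lowest mean share, 0.07%, was that of the gene at scaffold 3, 8755887 to 8756364, minus strand, among the genes with 200 or more reads in every library. It had 581 and 9106 Cr B reads in Cr B x Cr A and 714 and 3011 in Cr A x Cr B. Its Cr A reads numbered 0 and 5 in Cr B x Cr A and 2 and 1 in Cr A x Cr B. The Cr B reads of the replicates thus differed widely, and the Cr A reads stayed at a handful throughout.

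The next gene by share lay at scaffold 2, 3116099 to 3117897, minus strand, and had a mean share of 0.65%. Over 8 sites it had 325 and 1491 Cr B reads in Cr B x Cr A and 324 and 734 in Cr A x Cr B, beside 0 and 9 Cr A reads in Cr B x Cr A and 6 and 7 in Cr A x Cr B. A pair of low-share genes lay on scaffold 6. The gene at 15125187 to 15126566, plus strand, had 1316 and 2488 Cr B reads in Cr B x Cr A and 425 and 986 in Cr A x Cr B, with 9 and 9 Cr A reads in Cr B x Cr A and 17 and 26 in Cr A x Cr B (mean share 1.33%). The gene at 15188003 to 15192831, plus strand, had 689 and 592 Cr B reads in Cr B x Cr A and 253 and 276 in Cr A x Cr B, with 19 and 7 Cr A reads in Cr B x Cr A and 0 and 3 in Cr A x Cr B (mean share 2.02%). Per copy, the Cr A share at 15125187 was 1.35% and 0.72% in Cr B x Cr A and 1.96% and 1.30% in Cr A x Cr B, so the crosses overlapped. At 15188003 it was 5.23% and 2.31% in Cr B x Cr A and 0% and 0.54% in Cr A x Cr B. Neither gene was called for the parent in the fit described below.

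Among the genes with most sites, the one at scaffold 1, 15168756 to 15176280, plus strand, had a mean share of 1.12% over 16 sites. It had 186 and 320 Cr B reads in Cr B x Cr A and 30 and 130 in Cr A x Cr B, and 0 and 2 Cr A reads in Cr B x Cr A and 2 and 0 in Cr A x Cr B. Another low-share gene, at scaffold 4, 2971089 to 2973693, minus strand, had 1707 and 346 Cr B reads in Cr B x Cr A and 227 and 985 in Cr A x Cr B over 9 sites. Its Cr A reads were 10 and 13 in Cr B x Cr A and 2 and 8 in Cr A x Cr B (mean share 2.25%). In this gene the replicate with more reads was replicate 1 in Cr B x Cr A and replicate 2 in Cr A x Cr B.

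The 2 most deeply covered genes of the group had intermediate shares. The gene at scaffold 7, 5168430 to 5168939, minus strand, had 9715 and 45 Cr B reads in Cr B x Cr A and 14827 and 54 in Cr A x Cr B. Its Cr A reads were 733 and 0 in Cr B x Cr A and 7157 and 2 in Cr A x Cr B. Nearly all its reads therefore came from replicate 1 of each cross, and its Cr A share was also higher there, at 13.1% in Cr B x Cr A and 19.4% in Cr A x Cr B, against 0% and 1.82% in the libraries numbered 2.

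A like order of replicates was seen at scaffold 2, 2434174 to 2435958, minus strand. This gene had 6817 and 3214 Cr B reads in Cr B x Cr A and 4680 and 2033 in Cr A x Cr B, with 573 and 15 Cr A reads in Cr B x Cr A and 1091 and 100 in Cr A x Cr B. Its Cr A share was 14.4% and 0.92% in Cr B x Cr A and 10.4% and 2.40% in Cr A x Cr B. In both genes the replicate with more reads also had the larger Cr A share, and both crosses showed it.

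Such differences between replicates were common in the group. Depth-scaled reads differed more than 4-fold between the replicates of Cr B x Cr A in 21 of the 81 genes (25.9%), against 8.04% of the 6990 genes, and between those of Cr A x Cr B in 9 (11.1%), against 3.65%. The ratio of replicate 1 to replicate 2 had the same sign in both crosses in 57 of the 81 genes (70.4%), close to the 66.8% of the 6990 genes. In 5 genes (6.17%) it passed 4-fold the same way in both crosses, against 97 of the 6990 genes (1.39%), and this difference was not tested. More reads in the libraries numbered 2 were found in 1 of these, the gene at scaffold 8, 5418036 to 5419065, minus strand, with 98 and 663 reads in Cr B x Cr A and 36 and 317 in Cr A x Cr B. The other 4 were the gene on scaffold 7 described above and the genes at scaffold 7, 11610528 to 11612262, at scaffold 5, 12948405 to 12950444, and at scaffold 4, 938264 to 940135. What these differences between the pools go with was not tested.

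Genes with higher Cr A shares differed in how far their libraries lay apart. The gene at scaffold 2, 2265390 to 2273468, minus strand, had the most sites of the group, 27, and shares of 10.3% and 13.5% in Cr B x Cr A and 18.8% and 12.4% in Cr A x Cr B. With 19 sites, the gene at scaffold 5, 7668706 to 7673346, plus strand, had shares of 19.8% and 12.1% in Cr B x Cr A and 20.2% and 18.8% in Cr A x Cr B. Its Cr B reads were 4009 and 275 in Cr B x Cr A and 1036 and 750 in Cr A x Cr B. The gene with the highest mean share of the group, 21.9%, lay at scaffold 5, 11680173 to 11683206, minus strand. It had 1743 and 1398 Cr B reads in Cr B x Cr A and 845 and 1275 in Cr A x Cr B, and 226 and 195 Cr A reads in Cr B x Cr A and 512 and 725 in Cr A x Cr B. Its 4 shares lay between 20.6% and 23.3%. They are sums over unlike sites, since its 2 sites with 20 or more reads in every library had mean shares of 9.57% and 40.4%.

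The bound cuts a continuous range. Of those genes that all 4 libraries covered with 100 reads or more, the 3 just inside it lay at scaffold 3, 847609 to 849052, at scaffold 8, 5357597 to 5360656, and at scaffold 5, 7387077 to 7387697, with highest shares of 24.5%, 24.2% and 23.7%. The 3 just outside lay at scaffold 2, 8134292 to 8134630, at scaffold 3, 2822997 to 2824483, and at scaffold 4, 2396828 to 2403963, with highest shares of 25.2%, 25.5% and 25.7%. A further 47 of the 6990 genes met the bound in 3 of the 4 libraries. The library over the bound was replicate 1 of Cr B x Cr A in 13 of them, replicate 2 in 8, replicate 1 of Cr A x Cr B in 16 and replicate 2 in 10.

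Total reads of the Cr B-dominated genes were higher in Cr B x Cr A than in Cr A x Cr B in most of the group, although no gene passed the test. The median log2 ratio of Cr B x Cr A over Cr A x Cr B was 0.87 over the 81 genes, with an interquartile range of 0.51 to 1.21, against a median of 0.04 over the 9040 genes tested. It lay above 0 in 75 of the 81 genes (92.6%), against 53.0% of all genes tested. In 36 of the 81 genes (44.4%) the 2 values of Cr B x Cr A in RPM, the allelic reads of a gene scaled by the library total, lay above both values of Cr A x Cr B, which was so in 12.9% of the 9040 genes. In none of the 81 genes did both lie below, against 11.2% of the 9040 genes. The Cr A-dominated genes had a median of -0.81, and 58 of the 66 lay below 0.

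edgeR's quasi-likelihood test with Benjamini-Hochberg adjustment called 0 of the 81 genes and 0% of the 9040 genes (adjusted p = 1.00 for each of the 81). At an unadjusted p under 0.05, 6 of the 81 genes (7.41%) passed, all of them higher in Cr B x Cr A, against 1.36% of all genes tested, and DESeq2 called none of the 81. The medians over the 4 pairings of a Cr B x Cr A library with a Cr A x Cr B library were 0.68, 0.51, 1.02 and 0.82 for the Cr B-dominated genes. Over all genes the same pairings gave -0.03, -0.15, 0.17 and 0.06. The group lay above all genes in every pairing, but the pairings share libraries and are not separate checks. The rule bounds the Cr A share in both crosses, so copy number alone places such genes above 0, as set out below. The excess over all genes was therefore largely set by the choice of genes. Besides, 2 libraries against 2 cannot give an exact two-sided permutation p under 0.333.

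**Figure D2:**
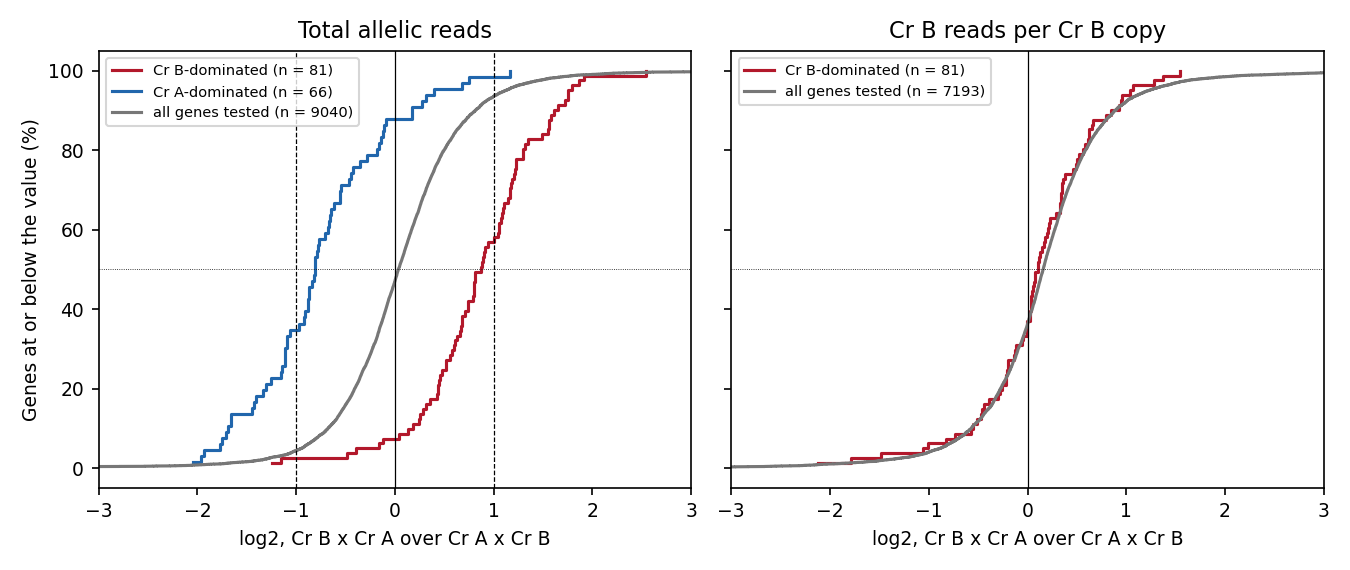
Cumulative percent of genes at or below each log2 ratio of Cr B x Cr A over Cr A x Cr B, for total allelic reads (left) and for Cr B reads per Cr B copy (right); red is the 81 Cr B-dominated genes, blue the 66 Cr A-dominated genes and grey all genes tested, and dashed lines mark a log2 ratio of -1 and 1. On the left the red curve crosses 50% at 0.87, the grey at 0.04 and the blue at -0.81; on the right the red curve crosses 50% at 0.10 and the grey at 0.16.

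Among the 6 genes with an unadjusted p under 0.05, described here after their values were seen, the gene at scaffold 1, 13871947 to 13873536, plus strand, had 66.3 and 77.9 RPM in Cr B x Cr A and 14.0 and 27.6 in Cr A x Cr B. Its log2 ratio was 1.79 (SE 0.52). At scaffold 6, the gene at 15125187 to 15126566 had 150.1 and 229.8 RPM in Cr B x Cr A and 58.6 and 92.7 in Cr A x Cr B, a log2 ratio of 1.31 (SE 0.43). In both genes the crosses did not overlap. The gene without any Cr A read, on scaffold 1, had 21.5 and 31.6 RPM in Cr B x Cr A and 10.3 and 8.25 in Cr A x Cr B (log2 ratio 1.49, SE 0.54). The other 3 lay at scaffold 2, 2781092 to 2783716, at scaffold 6, 7896757 to 7898466, and at scaffold 3, 12567229 to 12568910, with log2 ratios of 1.08, 1.91 and 1.17.

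The 6 genes below 0 included the gene at scaffold 3, 1148129 to 1148632, minus strand, with 12.7 and 14.3 RPM in Cr B x Cr A and 45.2 and 13.6 in Cr A x Cr B (log2 ratio -1.16, SE 0.72). Replicate 1 of Cr A x Cr B stood apart from the other libraries in this gene. The lowest ratio, -1.25 with an SE of 2.69, belonged to the gene at scaffold 7, 5168430 to 5168939, whose replicates lay far apart. Without replicate 1 of Cr A x Cr B its value was 6.99, so no direction can be given for it.

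These ratios were set beside those that copy number alone gives. A gene read from Cr B alone has 2 Cr B copies in Cr B x Cr A and 1 in Cr A x Cr B, which gives a log2 ratio of 1.00 when reads per copy are equal, and a Cr A share above 0 lowers it. From each gene's own mean share this calculation gave a median of 0.79, against the observed 0.87. In the 9 genes with mean shares of at most 1%, the observed median was 1.06 and the calculated one 1.00. In the 17 genes between 1% and 5% they were 1.05 and 0.96, and in the 17 between 5% and 10% they were 0.90 and 0.84. The 21 genes between 10% and 15% had 0.67 observed and 0.74 calculated, and the 17 above 15% had 0.88 and 0.63. The observed medians were lower at higher shares over the first 4 ranges and not in the last, where all 17 genes lay above 0. The shares that enter the calculation also chose the genes, so it is a description.

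**Figure D3:**
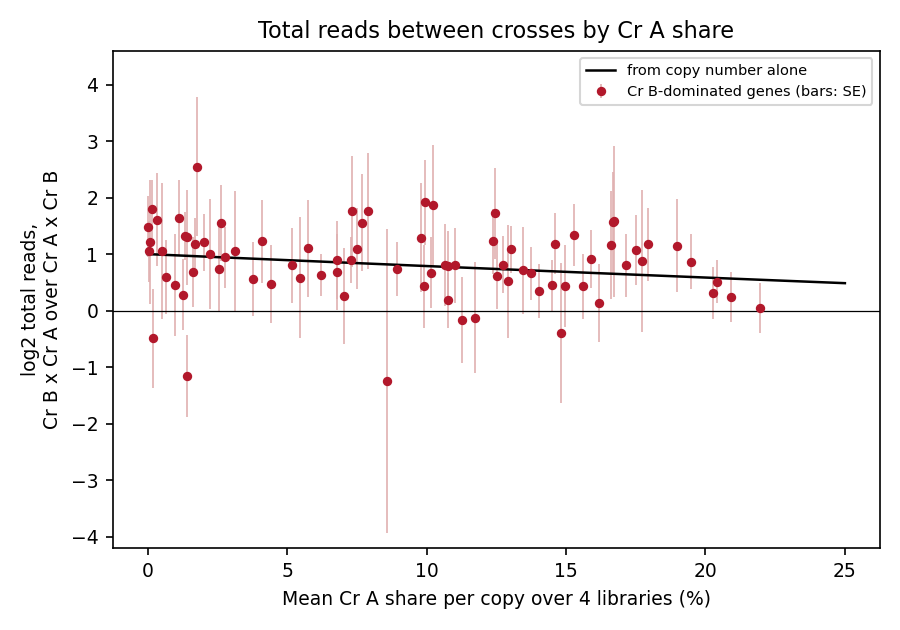
Log2 ratio of total reads, Cr B x Cr A over Cr A x Cr B, against the mean Cr A share per copy in percent for each of the 81 Cr B-dominated genes; bars are the standard error of the edgeR fit and the black line is the ratio that copy number alone gives. Of the 81 points, 75 lie above 0, and the lowest, at -1.25, has the widest bar.

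Read per Cr B copy, the Cr B reads of these genes differed little in the median between the directions of the cross. The median log2 ratio of Cr B reads per Cr B copy, Cr B x Cr A over Cr A x Cr B, was 0.10 over the 81 genes, with an interquartile range of -0.20 to 0.46, against 0.16 over the 7193 genes tested. It lay above 0 in 51 of the 81 genes (63.0%), against 63.8% of all genes tested. No gene of the group and 0% of all genes passed edgeR's test at an adjusted p under 0.05. At an unadjusted p under 0.05, 1 of the 81 genes passed, the gene at scaffold 3, 1148129 to 1148632, which was lower in Cr B x Cr A (log2 ratio -2.12, SE 0.74), against 2.91% of all genes tested. A miss of the threshold with 2 libraries a cross does not show that the levels were equal. Where nearly all reads are Cr B, the ratio per copy is close to the total ratio less the part from copy number. It therefore restates the comparison of total reads and is not separate support.

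In single genes the per-copy ratio had wide errors. It was 0.35 (SE 0.42) at scaffold 6, 15125187 to 15126566, and 0.18 (SE 0.47) at scaffold 6, 15188003 to 15192831. At scaffold 2, 2265390 to 2273468, it was 0.03 (SE 0.45), and at scaffold 5, 11680173 to 11683206, it was -0.47 (SE 0.44). None of these 4 passed the test. The Cr A allele had enough reads for the same fit in 39 of the 81 genes, with a median of -0.18, against -0.15 over the 7195 genes tested. None of the 39 was called, 1 had an unadjusted p under 0.05, and 3.63% of all genes tested did. Those 39 had more Cr A reads than the rest of the group, so they do not stand for all 81.

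Beside the allele effect, 2 of the 81 genes were called for the parent, and 1 of these calls was lost with the deepest site alone. A fit of the maternal and paternal reads of each library with terms for the accession and for the parent called 2 of the 81 genes as more maternal than the 2 to 1 dosage and none as less maternal, against 5.73% and 1.71%, together 7.44%, of the 8597 genes tested (edgeR quasi-likelihood test, adjusted p under 0.05). The median log2 parent term was 0.23 over the 81 genes and 0.19 over all genes tested, and it lay above 0 in 60 of the 81 genes (74.1%), against 76.8%. At an unadjusted p under 0.05, 11 of the 81 genes (13.6%) passed, against 19.7% of all genes tested. The bound on the Cr A share in every library limits how large a parent effect a gene of the group can have. The accession term of the same fit, which the rule used, was above 0 for Cr B over Cr A in every one of the 81 genes, with a median of 3.46. It called all 81, beside 9.35% of all genes tested that were called with Cr B higher and 5.11% with Cr B lower, and nothing is read from that count.

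The gene at scaffold 4, 7511574 to 7515306, plus strand, had the clearest parent effect. Its Cr B reads were 1266 and 1808 in Cr B x Cr A, where Cr B is maternal, and 597 and 819 in Cr A x Cr B, where Cr B is paternal. Its Cr A reads were 0 and 1 in Cr B x Cr A and 205 and 183 in Cr A x Cr B. The Cr A allele was thus read when it came from the mother and all but absent when it came from the father, whereas the Cr B allele was read from either parent. The Cr A share was 0% and 0.11% in Cr B x Cr A and 14.7% and 10.0% in Cr A x Cr B.

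The parent term of this gene was 3.76 (SE 0.31, adjusted p = 0.00107, edgeR), and leaving out any of the 4 libraries kept it past the threshold, with values between 3.42 and 5.04 and adjusted p between 0.00205 and 0.00839. Cr A reads were found at 9 of its 9 sites when Cr A was maternal, 388 in all, and at 1 of 9 when Cr A was paternal, 1 in all. At 3 of the 9 sites the maternal Cr A allele had 1 or 2 reads in all, so the difference between the crosses rests on the other 6 sites. The ratio of Cr B reads per Cr B copy between the crosses was -0.00 (SE 0.37), no difference beyond its error.

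The other gene lay at scaffold 3, 8411619 to 8412922, minus strand, and was less well covered. It had 405 and 65 Cr B reads in Cr B x Cr A and 25 and 80 in Cr A x Cr B, and 3 and 1 Cr A reads in Cr B x Cr A and 12 and 33 in Cr A x Cr B. Its parent term was 1.79 (SE 0.32, adjusted p = 0.0220, edgeR). The call was lost without replicate 1 of Cr B x Cr A (1.36, adjusted p = 0.260), without replicate 1 of Cr A x Cr B (1.74, adjusted p = 0.0621) and without replicate 2 of Cr A x Cr B (1.85, adjusted p = 0.0653). With the deepest site alone it was also lost (1.61, adjusted p = 0.226).

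Along the genes, most of the sites with enough reads to be judged singly lay within the bound, as the sum did. The 81 genes held 491 sites, and 150 of them, in 64 genes, had 20 or more reads in every library. Of these, 115 (76.7%) were themselves within the bound in all 4 libraries, beside 2.06% of the 21222 such sites in all genes. The sum over sites chose the genes, so this is a description. Of the 32 genes with at least 2 such sites, 17 had every one within the bound. The mean share over the 4 libraries was above 25% at 12 of the 35 sites outside it, and the highest was 45.4%. Exonic sites made up 141 of the 150, with a median share of 9.16%, and the other 9 had a median of 9.95%.

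The 7 such sites of the gene at scaffold 4, 7511574 to 7515306, had mean shares between 1.09% and 8.54%, each within the bound. At scaffold 4, 2971089 to 2973693, the 4 such sites lay between 0.35% and 3.30%. The gene with most of them, 11, lay at scaffold 8, 5357597 to 5360656, minus strand. Its site shares ran from 15.7% to 31.3% and 4 sites were within the bound, although the gene's own shares were 18.7% and 17.6% in Cr B x Cr A and 24.2% and 21.2% in Cr A x Cr B. The site shares of this gene thus lay on both sides of the bound.

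In a few genes the sites differed from each other more than the libraries did. The gene at scaffold 7, 9701962 to 9704605, minus strand, had 6 such sites. A pair of adjacent sites 2298 and 2299 bp from the lower end of the interval had mean shares of 8.74% and 8.61%, while the other 4 lay between 32.8% and 45.4%. The adjacent pair also had the most reads, 174 to 288 in the libraries of Cr B x Cr A and 104 to 176 in those of Cr A x Cr B. The gene's own shares, 19.6% and 18.3% in Cr B x Cr A and 20.8% and 22.4% in Cr A x Cr B, lay between these site shares. Read counts at the 2 adjacent sites were nearly equal in each library, and a read that covers both is counted at each. Whether the gene meets the bound with the pair counted once was not tested. The sites of this gene thus ranged from domination by Cr B at the adjacent pair to shares nearer to equal reads per copy elsewhere.

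The gene at scaffold 5, 11817168 to 11818856, plus strand, chosen after its values were seen, had the widest range, over 3 such sites. At the site 758 bp from the lower end the Cr A share was 4.44% and 4.84% in Cr B x Cr A and 2.90% and 5.70% in Cr A x Cr B. At the site 21 bp from the lower end it was 5.80% and 12.9% in Cr B x Cr A and 76.7% and 70.4% in Cr A x Cr B. The first of these sites was dominated by Cr B in both crosses, and at the second the larger share belonged to the maternal allele in both. The site between them, 221 bp from the lower end, had 3.32% and 10.3% in Cr B x Cr A and 10.7% and 64.7% in Cr A x Cr B, where the replicates of Cr A x Cr B lay far apart. For the gene as a whole the parent term was 0.61 (SE 0.19, adjusted p = 0.139, edgeR).

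**Figure D4:**
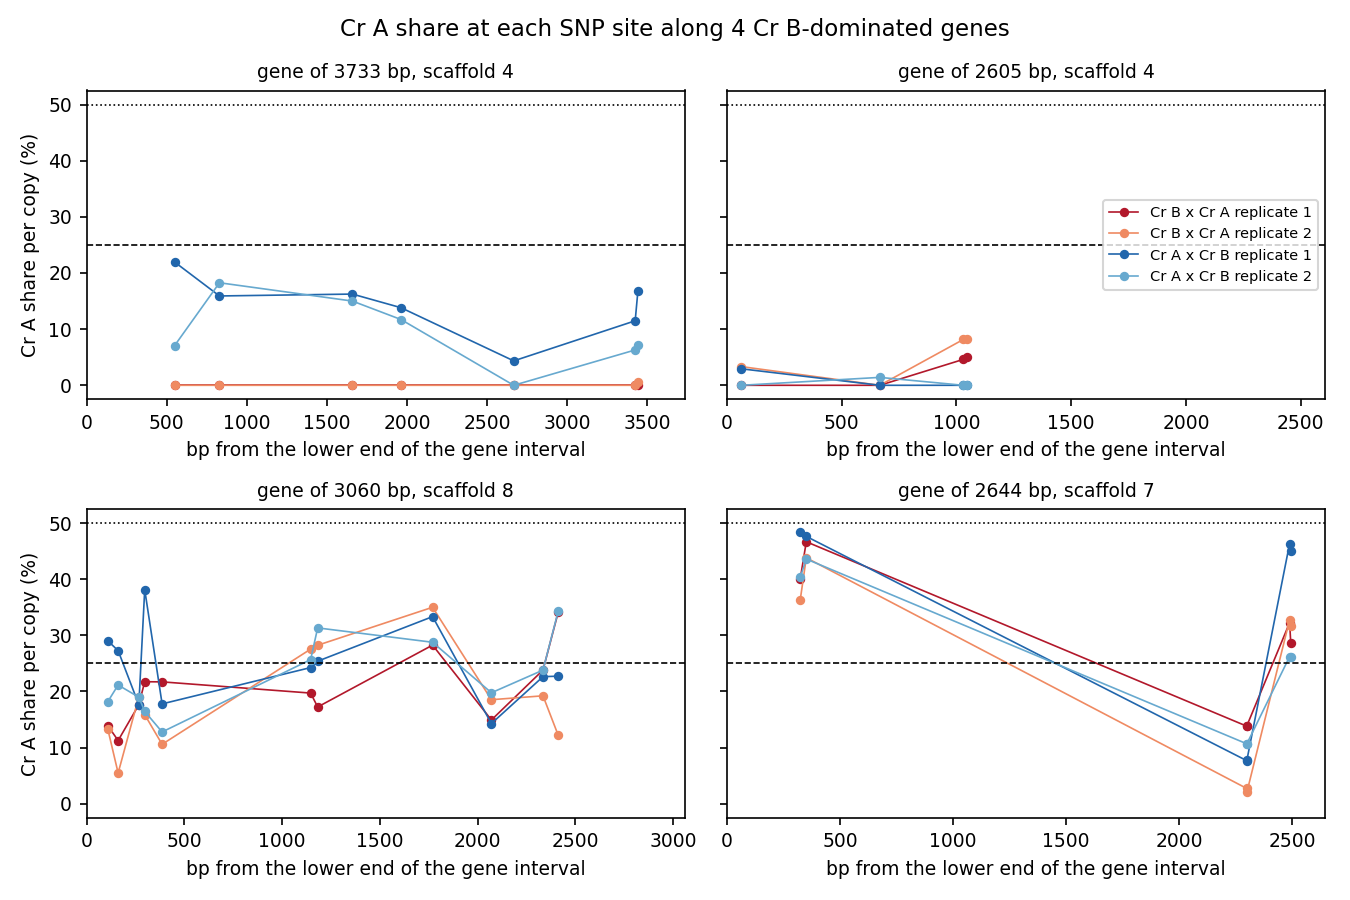
Cr A share per copy, in percent, at each site with 20 or more reads in every library along 4 Cr B-dominated genes, by distance in bp from the lower end of the gene interval; red lines are the libraries of Cr B x Cr A, blue lines those of Cr A x Cr B, and the dashed and dotted lines mark 25% and equal reads per copy. In the gene at top left, of 3733 bp, the blue lines lie at or above the red ones at every site, and in the gene at bottom right, of 2644 bp, all 4 libraries drop at the same pair of adjacent sites.

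The Cr B-dominated genes were short and rich in polymorphic sites. Their median interval length was 1837 bp, against 2097.5 bp in Cr A-dominated genes and 2710.5 bp in the 6990 genes. Their median density was 2.96 sites per kb (interquartile range 1.34 to 4.40), against 2.77 in Cr A-dominated genes and 1.29 (0.58 to 3.39) in the 6990 genes. More than 2 sites per kb were found in 53 of the 81 genes (65.4%), in 41 of the 66 Cr A-dominated genes (62.1%) and in 40.03% of the 6990 genes. With the 6990 genes split into 4 classes of nearly equal size by density, the Cr B-dominated genes numbered 6, 14, 28 and 33 in rising order of density, from 0.343% to 1.89% of a class. The Cr A-dominated genes numbered 5, 15, 20 and 26. Both lists thus became more frequent with site density, and the Cr B-dominated genes did not differ from the Cr A-dominated ones in this respect by more than 8 genes in any class.

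**Figure D5:**
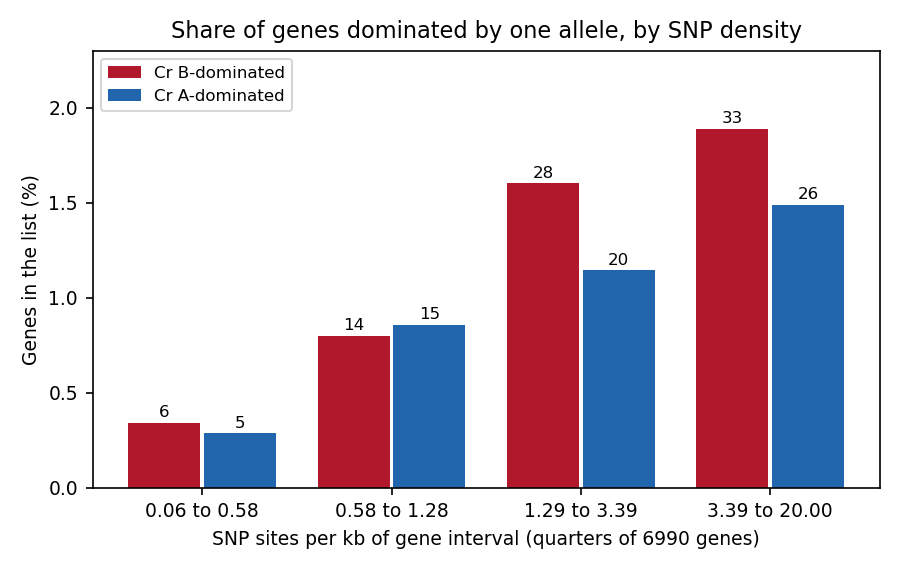
Percent of genes that were Cr B-dominated (red) or Cr A-dominated (blue) in each of 4 classes of nearly equal size of the 6990 genes by polymorphic sites per kb of gene interval, with the number of genes above each bar. The red bars rise from 0.343% in the sparsest class to 1.89% in the densest, and the blue bars from 0.286% to 1.49%.

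The group was less deeply covered than the 6990 genes. The 81 genes had a median of 1121 allelic reads over the 4 libraries, against 845.5 in Cr A-dominated genes and 1614.5 in the 6990 genes, and a median of 235 reads per site, against 190 and 476. Reads of a gene in a library ran from 20 to 21984. In 26 of the 81 genes the least covered library had 20 to 50 reads, and 41 had at least 100 reads in every library. A site lay in an annotated exon for 82.9% of the sites of the group, against 77.8% in Cr A-dominated genes and 73.5% in the 6990 genes, and 3 of the 81 genes had no exonic site. Only 13 of the 81 genes (16.0%) rested on 1 site, against 22.4% of the 6990 genes. Mapping rates of the Cr B and Cr A reads were not analysed here, and the part of site density in the shares was not tested.

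The genes lay on all 8 large scaffolds and were not arranged in runs. Scaffold 2 held 15 of them (2.04% of its genes with 20 reads in every library), scaffold 6 held 12, and scaffolds 3, 5 and 8 held 11 each. Scaffold 7 held 10, scaffold 1 held 6 (0.543%) and scaffold 4 held 4 (0.504%), and 1 gene lay on the small scaffold 151. The Cr A-dominated genes were spread in much the same numbers, with 13 on scaffold 2 and 4 on scaffold 4, but there were 3 of them on scaffold 8 (0.433%), against 11 Cr B-dominated genes (1.59%). The difference on scaffold 8 was seen after the values and was not tested. The 1 gene on scaffold 151 was the sole gene there with 20 reads in every library. Its interval runs from 512 to 2033 on the plus strand, and its Cr A share was 5.76% and 0% in Cr B x Cr A and 1.39% and 3.36% in Cr A x Cr B.

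The nearest genes with 20 reads in every library on either side of the Cr B-dominated genes numbered 158, each counted once, and 0 were Cr B-dominated. Their median mean Cr A share was 47.4%, close to the 48.9% of the 6990 genes. A mean share under 40% was found in 37 of them (23.4%), against 14.2% of the 6990 genes. No neighbour met the bound, and low shares were more frequent among the neighbours than among the 6990 genes, a difference that was not tested.

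The closest pair lay on scaffold 8, where 8.55 kb separated the gene at 5357597 to 5360656 from the gene at 5369210 to 5371952, plus strand. The gene at 5361957 to 5365479 between them had a mean share of 32.2%. Another Cr B-dominated gene, at 5418036 to 5419065, followed after 46.1 kb, and the 5 covered genes in that stretch had mean shares from 25.97% to 47.9%. All genes of this region with 20 reads in every library therefore had mean shares under 50%, whether or not they met the bound. Over the 7 gaps of under 100 kb between Cr B-dominated genes, the 22 genes in between had mean shares from 25.97% to 64.9%, with a median of 41.2%.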

How the data were processed

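Endosperm RNA from 2 libraries of Cr B x Cr A and 2 of Cr A x Cr B was analysed; the leaf DNA samples served only as the place where the tables are filed. Among the tools, Trimmomatic, TopHat and Bowtie 1.0 are listed per the submitters' processing notes, without saying what each was used for. Genome build and allele calling are not given in the sources used here. Per the file headers, the authors deposited maternal and paternal read counts for each polymorphic site with a gene and an exon interval. The columns were tied to the libraries by position and count, since 99.7% of sites or more were equal in the matching library and at most 3.11% in any other pairing. The separate per-library tables were used for this alone. Values in other deposited columns (ratios and p-values) were not used.

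Counts were summed per gene and allele. The 3 fits used edgeR 4.0.16 in R 4.3.3, by its quasi-likelihood test with Benjamini-Hochberg adjustment over all genes tested (threshold 0.05). The first compared total allelic reads between crosses after filterByExpr with TMM normalisation. The second compared Cr B reads with an offset for 2 maternal copies, in genes with 20 Cr B reads in each cross. The third fitted maternal and paternal columns with terms for library, accession and parent, in genes with 20 reads in each cross. Each was also run on simulated counts with independent libraries and a fixed spread between replicates. The simulation held no pattern shared by libraries of the same number, so it does not measure the error rate in these data. DESeq2 1.42.0, other normalisations and filters, the replicate number as a block, exonic sites, the deepest site and leaving out each library were alternatives. Standard errors are the log2 estimate over the square root of its F statistic. Limits for a count of 0 are 3 reads of the total and cover counting error only, with the counts at all sites taken as independent.

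The genes and lists were chosen with earlier results of these data known. Genes named in the text were the 8 with most reads, the 6 with the lowest mean share among those with 200 reads in every library, the 3 on either side of the bound with 100 reads, those past a test's threshold and the 4 with most sites; other genes are said to be chosen after their values, or are named as the few in a count. The intervals carry no names and the reference table of gene names could not be matched to them without a shared build or identifier, so groups by gene product were not formed.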

Additional observations from a re-analysis of the deposited data

Results flagged for a closer look

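In 2 Cr B-dominated genes the ratio of maternal to paternal reads was called as departing from the dosage beside the effect of the accession. Their Cr A share differed between the directions of the cross. A log2 parent term of 3.76 was found at scaffold 4, 7511574 to 7515306 (SE 0.31, adjusted p = 0.00107, edgeR's quasi-likelihood test), where the Cr A share was 0% and 0.11% in Cr B x Cr A and 14.7% and 10.0% in Cr A x Cr B. At scaffold 3, 8411619 to 8412922, the term was 1.79 (SE 0.32, adjusted p = 0.0220, edgeR), with shares of 1.46% and 2.99% in Cr B x Cr A and 19.4% and 17.1% in Cr A x Cr B. Its call was lost in 3 of the 4 fits that left out 1 library (adjusted p = 0.260, 0.0621 and 0.0653, edgeR) and with the deepest site alone (adjusted p = 0.226). Among all 8597 genes tested, 7.44% were called for the parent.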

How the results depend on the processing

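The number of Cr B-dominated genes was 81. It was 40 without halving the maternal reads, 37 of them shared with the 81. It was 95 and 56 with minimums of 10 and 50 reads, 57 and 119 with bounds of 0.20 and 0.30, 74 with exonic sites, 80 with the deepest site (54 shared), and 91 to 105 without 1 library. For total reads, the median over the 81 genes stayed above 0 under every alternative run, at 0.61 to 1.03 without 1 library (0.61 without replicate 2 of Cr B x Cr A). None of the 81 was called under any alternative. Over all genes, those called with Cr B x Cr A higher and lower were 7 and 13 with DESeq2, 3 and 2 without a filter, and 2 and 3 with the replicate number as a block. For Cr B reads per copy they were 56 and 21 with DESeq2, 255 and 28 without a filter, and 8 and 2 with the block. With the block, the median over the 81 genes was 0.75 for total reads and 0.004 for Cr B reads per copy. The replicate numbers are shared by the labels without a stated pairing. Across 9040 genes the difference of replicate 1 and 2 in one cross correlated with that in the other at r = 0.58, with genes not independent. By chi-square per degree of freedom of gene counts, libraries of the same number lay closer across the crosses (119.5 for number 1, 55.3 for number 2). Replicates of a cross lay further apart (277.0 in Cr B x Cr A, 177.4 in Cr A x Cr B).

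The median parent term over the 81 genes was 0.046 with the median gene as the null and 0.14 to 0.41 without 1 library. More maternal genes among the 81 numbered 1 with the deepest site, and which genes were called changed when 1 library was left out. Less maternal ones numbered 2 with the median gene as null, 2 with DESeq2 and 0 to 1 without 1 library. Over all genes, the more maternal ones numbered 313 to 417 without 1 library, against 493.

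The log2 ratio of total reads changed sign in 8 named genes, each with wide errors. Without 1 library it ran from -8.62 to 6.99 at scaffold 7, 5168430 (main value -1.25), from -0.83 to 1.63 at scaffold 2, 2434174, from -1.39 to 2.10 at scaffold 3, 8755887, and from -2.63 to 1.80 at scaffold 5, 7668706. It ran from -0.42 to 0.38 at scaffold 5, 11680173, from -0.51 to 1.204 at scaffold 2, 3116099, from -0.97 to 1.91 at scaffold 4, 2971089, and from -0.43 to 2.69 at scaffold 3, 8411619. With the replicate block it was -0.29 at scaffold 5, 7668706, and -0.011 at scaffold 5, 11680173, and with the deepest site -0.32 at scaffold 2, 2434174. The cause of these changes was not tested.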
